A study of Mus musculus with 33 samples.

Results

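The proteasome genes were examined as 1 family across bone marrow neutrophil and monocyte precursors of the mouse, with and without sepsis. Members were the features of the count table whose symbol began with Psma, Psmb, Psmc, Psmd, Psme or Psmg followed by a digit, with pseudogene symbols left out. This gave 49 of 54752 features. Of these, 48 passed the filter on low counts. Psmb11, the thymus form of a catalytic subunit, did not pass: it had no count in 32 of 33 libraries and 0.0833 CPM (the count scaled to a common library total) in sepsis preNeu replicate 1. One further match, Psmc3ip, encodes a protein of meiotic recombination and not a proteasome subunit, so it is counted in the totals and described apart.

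RNA was sequenced from 11 groups of sorted cells with 3 biological replicates each. The 4 sepsis groups were Ly6C- GMP (a fraction of the granulocyte-monocyte progenitors), proNeu1, proNeu2 and preNeu (successive neutrophil precursors), taken from mice 3 days after mid-grade CLP, a ligation and puncture of the caecum that seeds the abdomen with gut bacteria. Their controls were the same 4 populations from mice described as wild type, without a stated sham operation. The other 3 groups, also from mice without a stated treatment, were cMoP (monocyte progenitors), TpMo (a later monocyte intermediate) and Ly6Chi monocytes. The sources used here gave no age and no sex, and sorting in sepsis used the same surface gates as in controls. In bulk RNA of this kind, fewer cells of a type and less RNA per cell cannot be told apart.

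The proteasome degrades proteins tagged with ubiquitin. Its core is a barrel of alpha rings, which form the gates, and beta rings, which hold the catalytic sites; a cap made of an ATPase base and non-ATPase subunits recognises, unfolds and feeds in the substrates. In cells of the immune system, and after interferon, the catalytic subunits Psmb5, Psmb6 and Psmb7 of new particles are replaced by the immune subunits Psmb8, Psmb9 and Psmb10, and the cap can be exchanged for the Psme1 and Psme2 activator ring. These immunoproteasomes are known for producing peptides that fit the groove of MHC class I.

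Libraries held 5517734 to 39977745 counts. The smallest were 5 libraries with up to 6781973 counts: replicate 3 of sepsis and of control preNeu, replicate 1 of sepsis and of control proNeu1, and replicate 2 of the Ly6Chi monocytes. All others held at least 17237611 counts. The monocyte and preNeu marker lists followed the labels: monocyte markers summed to 5879.1 to 6771.3 CPM in the 3 monocyte populations and to at most 1605.6 CPM elsewhere, and preNeu markers summed to 21691 CPM or more in both preNeu groups and to at most 3720.6 CPM elsewhere. Macrophage markers were highest in control proNeu2, at 571.8 to 705.8 CPM, against 136.8 to 165.5 CPM in sepsis proNeu2 and 300.9 to 491.3 CPM in Ly6Chi monocytes. Neutrophil precursor markers summed to 30042.7 to 32259.2 CPM in cMoP, above control preNeu. Control preNeu replicate 3 stood apart, with neutrophil precursor markers at 19763.4 CPM against 9634.3 and 9610.6 CPM in the other two. Xist was at 153.1 to 587.5 CPM in all 24 libraries of Ly6C- GMP, proNeu1, proNeu2 and preNeu and at 0 to 1.4 CPM in the 9 monocyte libraries, so sex and path cannot be told apart in cMoP against Ly6C- GMP, in proNeu1 against cMoP and in preNeu against Ly6Chi monocytes.

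Proteasome genes were expressed well above most genes. The 48 tested members had a median of their mean levels of 155.9 CPM, against 7.58 CPM for all 18198 tested genes. The shares of all genes that passed a test, given below beside member counts, were not matched for level. All 49 together took 0.876% of counts for Ly6C- GMP, 0.893% for proNeu1, 0.797% for proNeu2 and 0.477% for preNeu of control mice. On the monocyte path they took 0.829% for cMoP, 0.674% for TpMo and 0.528% for Ly6Chi monocytes. The last stage sampled on either path thus had the lowest share. In sepsis the shares were 1.00% for Ly6C- GMP, 0.962% for proNeu1, 0.935% for proNeu2 and 0.724% for preNeu.

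The classes of subunits did not move in step. Summed over the 14 non-ATPase cap genes, the level in sepsis was 4291.9 ± 181.6 CPM for Ly6C- GMP, 4110.9 ± 97.8 for proNeu1, 3931.3 ± 159.2 for proNeu2 and 2993.3 ± 111.9 for preNeu (mean ± SD, n = 3 each). In controls the same sum was 3238.6 ± 259.6 CPM for Ly6C- GMP, 3446.4 ± 193.5 for proNeu1, 3006.9 ± 157.5 for proNeu2 and 1947.3 ± 180.1 for preNeu. For the 3 immune subunits, the sepsis sums were 315.8 ± 45.6 CPM for Ly6C- GMP, 238.5 ± 11.8 for proNeu1, 217.5 ± 7.93 for proNeu2 and 176.2 ± 14.1 for preNeu. Their control sums were 438.1 ± 35.2 CPM for Ly6C- GMP, 375.3 ± 27.1 for proNeu1, 275.5 ± 36.6 for proNeu2 and 163.1 ± 27.6 for preNeu. The cap sums were thus higher in sepsis in all 4 populations. The immune sums were lower in Ly6C- GMP, proNeu1 and proNeu2 and overlapped in preNeu, though single immune subunits differed, as given below.

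**Figure D1:**
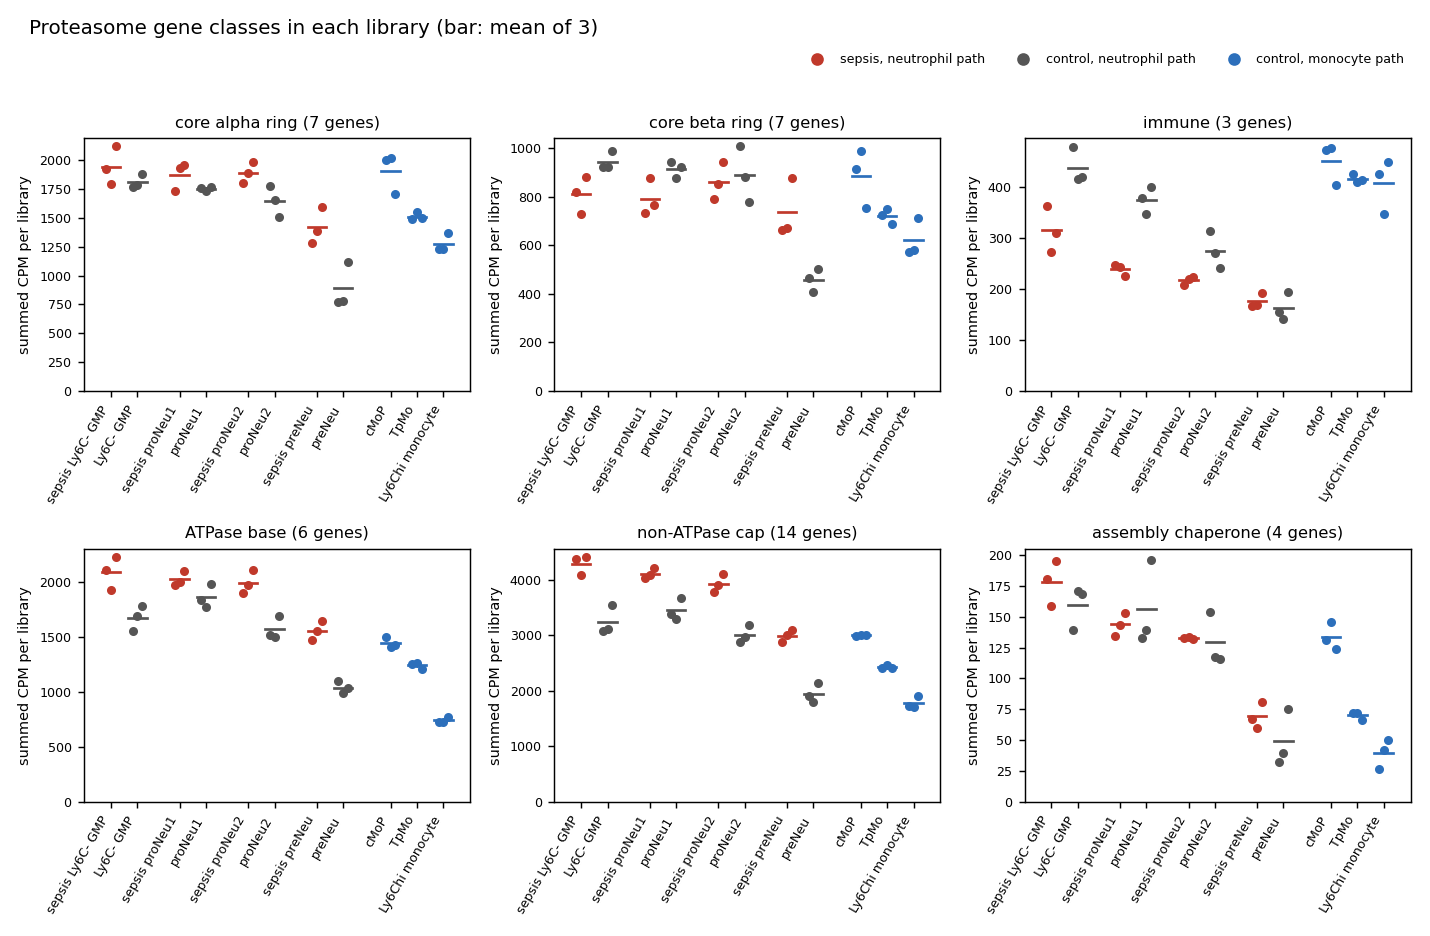
Summed CPM of the members of each proteasome class, 1 point per library and a bar at the mean of 3, for the 4 sepsis groups, their controls and the 3 monocyte groups. In preNeu the 7 alpha ring genes summed to 1419.6 ± 158.4 CPM in sepsis and 888.7 ± 198.0 CPM in control cells, and the 6 ATPase genes summed to 739.3 ± 27.3 CPM in Ly6Chi monocytes, their lowest level.

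The 6 interchangeable catalytic subunits lie on 5 chromosomes of the mouse genome (GRCm38 coordinates, as deposited). Psmb8 (chr17:34197721-34201454, plus strand) and Psmb9 (chr17:34181988-34187764, minus strand) sit in the MHC region on either side of Tap1, a subunit of the peptide transporter; the ends of Psmb9 and Tap1 overlap by gene coordinates, and Tap1 and Psmb8 lie 495 bases apart. Psmb10 (chr8:105935735-105938444, minus strand) lies elsewhere, as do Psmb5 (chr14:54614119-54618022, minus strand), Psmb6 (chr11:70525367-70527858, plus strand) and Psmb7 (chr2:38588036-38644087, minus strand). The share of exonic length that overlapped another feature was 33.2% for Psmb8 (Gm20496), 7.65% for Psmb9 (Tap1) and 11.8% for Psmb7 (Nek6), all on the opposite strand. For Psmb5 it was 13.2% (Mir686), on the same strand.

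The 250 bases before the RefSeq start (GRCm38.p6) are shown for 5 of the 6, because the balance of immune and constitutive subunits was compared in every library; the RefSeq table used here had no entry for Psmb7. Capitals mark matches to any of 4 motifs: GAAA, any 2 bases and GAAA again (the core of an interferon response element), TTCNNNGAA (a STAT site), TGACNNNGC (the core of an antioxidant response element) and CCAAT. Both strands were searched, TTCNNNGAA reads the same on both, and no motif match shown overlaps another.
Psmb8, chr17:34197945-34198194, plus strand: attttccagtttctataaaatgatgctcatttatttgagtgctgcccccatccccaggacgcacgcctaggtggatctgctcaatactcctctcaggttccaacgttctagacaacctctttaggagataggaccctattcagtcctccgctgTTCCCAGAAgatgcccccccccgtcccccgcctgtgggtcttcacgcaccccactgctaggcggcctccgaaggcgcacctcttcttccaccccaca
Psmb9, chr17:34187331-34187580, minus strand: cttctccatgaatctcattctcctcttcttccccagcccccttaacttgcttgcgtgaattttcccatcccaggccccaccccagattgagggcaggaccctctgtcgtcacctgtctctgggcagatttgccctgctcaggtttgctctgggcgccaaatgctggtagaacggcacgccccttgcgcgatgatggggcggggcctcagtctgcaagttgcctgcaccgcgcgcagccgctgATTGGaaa
Psmb10, chr8:105938393-105938642, minus strand: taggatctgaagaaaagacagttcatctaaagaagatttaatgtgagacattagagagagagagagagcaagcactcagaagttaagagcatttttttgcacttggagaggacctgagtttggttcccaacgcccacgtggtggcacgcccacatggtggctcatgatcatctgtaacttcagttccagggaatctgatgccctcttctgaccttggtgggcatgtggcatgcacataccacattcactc
Psmb5, chr14:54617996-54618245, minus strand: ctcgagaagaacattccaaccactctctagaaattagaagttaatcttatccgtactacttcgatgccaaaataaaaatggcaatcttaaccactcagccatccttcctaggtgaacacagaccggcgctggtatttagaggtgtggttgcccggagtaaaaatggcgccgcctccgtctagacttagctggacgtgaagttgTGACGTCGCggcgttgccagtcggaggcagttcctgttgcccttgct
Psmb6, chr11:70525107-70525356, plus strand: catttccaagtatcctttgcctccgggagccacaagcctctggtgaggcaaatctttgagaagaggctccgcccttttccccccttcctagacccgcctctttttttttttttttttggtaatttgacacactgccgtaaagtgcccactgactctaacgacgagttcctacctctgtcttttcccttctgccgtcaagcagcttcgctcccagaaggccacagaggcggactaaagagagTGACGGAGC

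In these 5 windows, the Psmb8 stretch held TTCCCAGAA, a match to the STAT motif, and Psmb9 held ATTGG, the reverse complement of CCAAT. The stretch of Psmb10 held none of the 4. Psmb5 and Psmb6, both constitutive, each held a TGACNNNGC match, as TGACGTCGC and TGACGGAGC. Over windows of 250 bases before to 50 after the start, TGACNNNGC was found in 6 of 41 members with an entry (14.6%) and in 14.0% of 27025 genes. The other shares were 12.2% of members against 3.99% of genes for the interferon response core, found in Psmb3, Psmd4, Psmd9, Psme1 and Psmg4, 7.32% against 9.55% for TTCNNNGAA, and 36.6% against 41.1% for CCAAT. A match describes letters and not a bound site. The windows shown for Psmb8 and Psmb9 lie wholly inside the deposited gene coordinates, and those of Psmb10 and Psmb5 in part. The Psmb8 and Psmb9 windows thus do not show the bases before the deposited gene starts.

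Psmb5, the constitutive chymotrypsin-like subunit, was higher in sepsis in every population. In Ly6C- GMP its level was 112.9, 92.1 and 113.1 CPM in sepsis libraries and 63.2, 64.5 and 56.2 CPM in control libraries. In proNeu1 the values were 108.2, 120.0 and 111.8 CPM in sepsis and 66.4, 59.4 and 48.5 CPM in controls, and in proNeu2 they were 122.9, 126.2 and 145.4 CPM in sepsis and 68.6, 41.8 and 46.5 CPM in controls. Sepsis preNeu held 95.8, 95.3 and 141.4 CPM, against 24.9, 50.9 and 70.0 CPM in control preNeu. No sepsis library overlapped its controls, and the log2 fold change averaged over the 4 populations was 1.11 ± 0.11 (adjusted p = 5.51e-09); fold changes are given throughout on the log2 scale, ± SE, with p-values of edgeR's quasi-likelihood test adjusted by Benjamini-Hochberg over all 18198 genes and called below 0.05. On the monocyte path Psmb5 stood at 103.5, 120.6 and 86.2 CPM for cMoP, 70.5, 82.0 and 76.5 CPM for TpMo and 54.8, 57.8 and 83.1 CPM for Ly6Chi monocytes.

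Psmb8, the immune counterpart of Psmb5, did not follow it. In Ly6C- GMP it was at 218.1, 157.5 and 185.4 CPM in sepsis and 244.8, 208.0 and 208.8 CPM in controls, and in proNeu1 at 136.7, 136.0 and 130 CPM in sepsis and 169.1, 160.0 and 176.6 CPM in controls. In proNeu2 the sepsis libraries held 105.9, 121.1 and 119.8 CPM and the controls 122.8, 90.5 and 84.3 CPM, and in preNeu 77.5, 74.1 and 91.1 CPM in sepsis and 56.4, 56.5 and 90.4 CPM in controls. The ranges overlapped in all populations but proNeu1, where no sepsis library reached the lowest control. None of the 4 sepsis comparisons called the gene, and its mean change was 0.02 ± 0.07 (adjusted p = 0.927). Monocyte libraries stayed high for Psmb8, at 239.1, 238.6 and 217.6 CPM for cMoP, 216.4, 199.2 and 203.6 CPM for TpMo and 212.7, 161.3 and 198.4 CPM for Ly6Chi monocytes.

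Psmb6, the constitutive caspase-like subunit, was lower in sepsis in the 3 earlier populations. Ly6C- GMP held 143.9, 149.1 and 167.2 CPM in sepsis and 215.3, 229.9 and 269.5 CPM in controls, and proNeu1 held 158.9, 153.1 and 142.5 CPM in sepsis and 231.8, 203.8 and 207.4 CPM in controls. In proNeu2 the values were 136.7, 137.5 and 150.0 CPM in sepsis and 232.1, 203.0 and 182.6 CPM in controls, and in preNeu 102.5, 107.7 and 149.0 CPM in sepsis and 103.4, 68.3 and 90.6 CPM in controls. Only in preNeu did the ranges overlap, and there the sepsis mean was the higher one. The fold changes were called in Ly6C- GMP (-0.51 ± 0.13, adjusted p = 0.00623), proNeu1 (-0.44 ± 0.13, adjusted p = 0.0198) and proNeu2 (-0.52 ± 0.13, adjusted p = 0.00512), but not in preNeu (0.38 ± 0.13, adjusted p = 0.0594). The Ly6C- GMP call was lost without control replicate 3 (adjusted p = 0.0602, edgeR), and the proNeu1 call without control replicate 1, sepsis replicate 1 or sepsis replicate 3 (adjusted p up to 0.0826).

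Psmb9, the immune counterpart of Psmb6, was lower in the same 3 populations. Sepsis Ly6C- GMP held 70.8, 57.4 and 60 CPM and control Ly6C- GMP 131.8, 103.4 and 92.2 CPM; sepsis proNeu1 held 60.6, 57.5 and 48.3 CPM and control proNeu1 98.6, 94.7 and 108.0 CPM. In proNeu2 the level was 55.7, 56.7 and 59.6 CPM in sepsis and 96.2, 75.8 and 66.3 CPM in controls, and in preNeu 62.5, 65.7 and 72.1 CPM in sepsis and 69.8, 65.7 and 75.8 CPM in controls. Again the ranges overlapped in preNeu alone. The log2 fold changes were -0.66 ± 0.14 (adjusted p = 0.00116) for Ly6C- GMP, -0.80 ± 0.14 (adjusted p = 0.000231) for proNeu1, -0.45 ± 0.14 (adjusted p = 0.0273) for proNeu2 and -0.14 ± 0.14 (adjusted p = 0.595) for preNeu. In proNeu2 Psmb9 was not called without replicate 1 or 2 of sepsis, nor without replicate 1 or 2 of the controls; without control replicate 1 the change was -0.30 (adjusted p = 0.203, edgeR).

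The third pair, Psmb7 (trypsin-like, constitutive) and Psmb10 (immune), moved in opposite directions. Psmb7 stood in sepsis at 48.7, 42.0 and 49.7 CPM for Ly6C- GMP, 37.5, 45.1 and 48.4 for proNeu1, 47.4, 43.7 and 54.1 for proNeu2 and 41.9, 38.8 and 48.1 for preNeu. The controls stood at 28.4, 25.7 and 26.5 CPM for Ly6C- GMP, 36.0, 34.4 and 36.9 for proNeu1, 33.1, 28.9 and 23.5 for proNeu2 and 12.6, 19.2 and 21.9 for preNeu. Every sepsis library of Psmb7 was above its controls, by a narrow margin in proNeu1, where the gene was not called (0.35 ± 0.17, adjusted p = 0.17). Its mean change was 0.82 ± 0.09 (adjusted p = 9.73e-09).

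Psmb10 was at 75.0, 58.4 and 64.8 CPM in sepsis Ly6C- GMP and 102.0, 104.3 and 118.9 CPM in the controls, and at 50.5, 48.8 and 47.0 CPM in sepsis proNeu1 and 111.2, 91.8 and 115.8 CPM in the controls. In proNeu2 it was at 47.1, 41.6 and 44.9 CPM in sepsis and 95.6, 103.5 and 91.5 CPM in controls, and in preNeu at 27.4, 29.0 and 29.2 CPM in sepsis and 28.1, 18.8 and 27.9 CPM in controls. The first 3 populations showed clear gaps, and the low preNeu values overlapped. Psmb10 fell in sepsis in Ly6C- GMP (-0.58 ± 0.14, adjusted p = 0.00296), proNeu1 (-1.06 ± 0.14, adjusted p = 4.58e-06) and proNeu2 (-1.10 ± 0.14, adjusted p = 1.99e-06). Its highest mean was that of Ly6Chi monocytes, at 117.1, 112.4 and 152.6 CPM, against 96.7, 93.0 and 97.9 CPM in TpMo and 96.8, 98.8 and 76.6 CPM in cMoP.

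**Figure D2:**
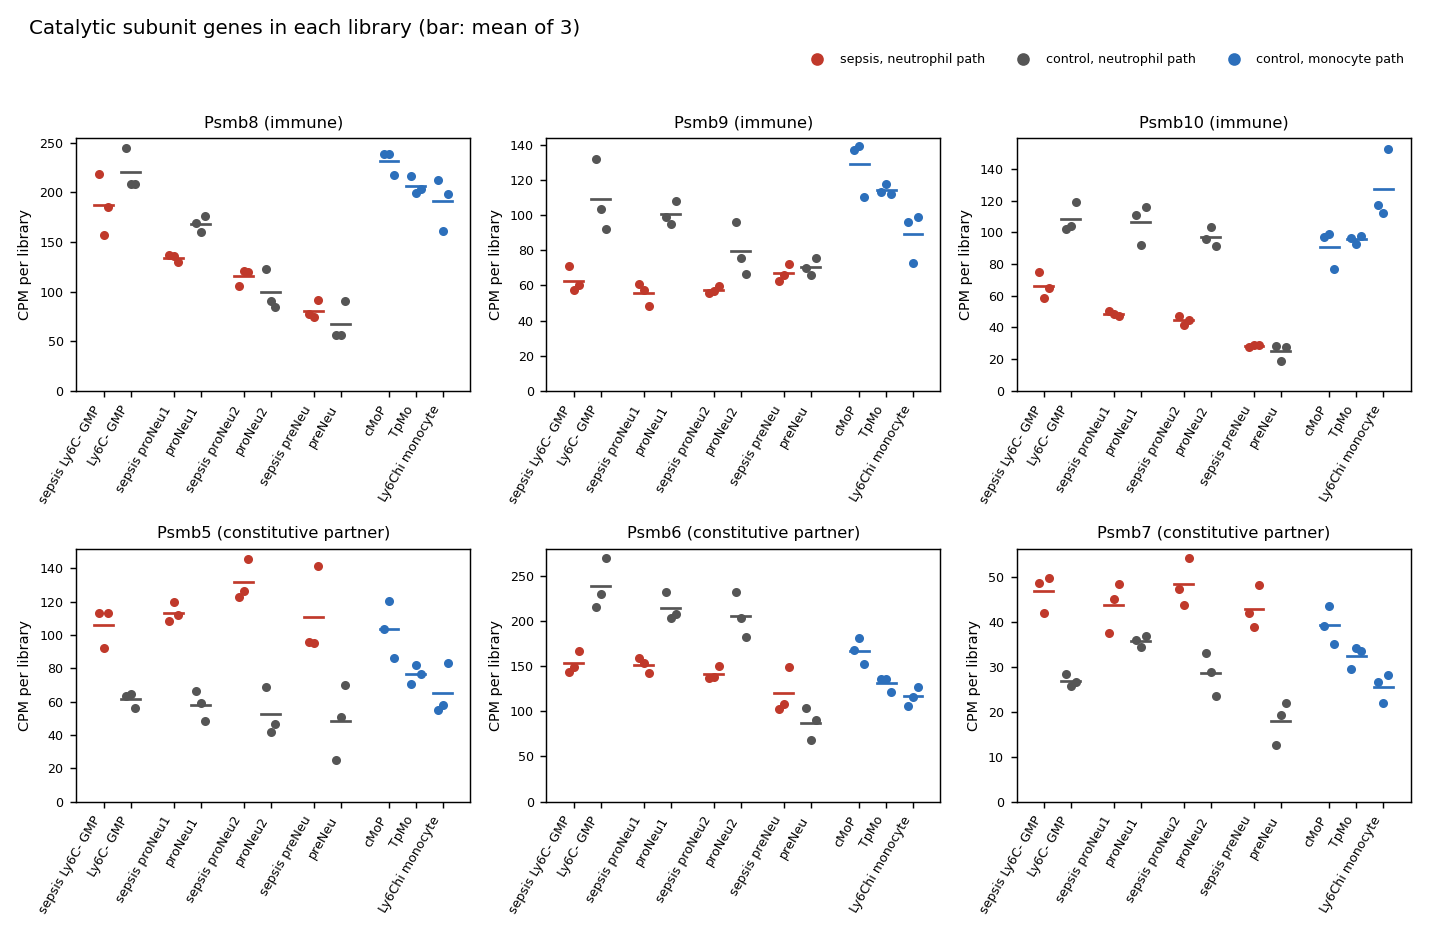
CPM of the 6 interchangeable catalytic subunits, 1 point per library and a bar at the mean of 3, with each immune subunit beside its constitutive counterpart. Psmb5 separates sepsis from control in all 4 populations, while Psmb10 is lower in sepsis in 3 of them and low in both preNeu groups.

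Dividing each immune subunit by its counterpart, after scaling both per kilobase of exon, set the balance within a library. The Psmb8 to Psmb5 log2 ratio averaged -0.79 ± 0.12 in sepsis and 0.24 ± 0.14 in control Ly6C- GMP, and -1.36 ± 0.08 in sepsis and -0.06 ± 0.28 in control proNeu1 (mean ± SD, n = 3 each). In proNeu2 it averaged -1.79 ± 0.11 in sepsis and -0.67 ± 0.15 in controls, and in preNeu -2.04 ± 0.17 in sepsis and -1.04 ± 0.54 in controls. The ranges of sepsis and control libraries did not overlap in any of the 4 populations. Averaged over them the ratio was lower by 1.11 log2 units in sepsis, or 2.17-fold. Two-sided exact permutation within populations, with 160000 arrangements, gave p = 1.25e-05, the smallest it can give, and 1.88e-05 adjusted over 3 pairs. The test counts the 24 libraries as independent. Whether the 4 populations were sorted from the same mice was not given, and shared mice would make the p-values of these ratio tests too small.

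The ratio of Psmb10 to Psmb7 showed the largest shift of the 3. Its log2 value averaged 1.5 ± 0.12 in sepsis and 3.02 ± 0.16 in control Ly6C- GMP, and 1.17 ± 0.24 in sepsis and 2.57 ± 0.13 in control proNeu1. In proNeu2 it averaged 0.89 ± 0.14 in sepsis and 2.78 ± 0.22 in controls, and in preNeu 0.42 ± 0.15 in sepsis and 1.5 ± 0.61 in controls. Here too no ranges overlapped, and the mean difference of -1.47 log2 units, or 2.77-fold lower in sepsis, gave an exact permutation p of 1.25e-05, again the smallest possible. For Psmb9 over Psmb6, both of which were lower in sepsis in the earlier stages, the mean difference was -0.24 (adjusted exact permutation p = 0.0221). It was -0.16 for Ly6C- GMP, -0.36 for proNeu1, 0.08 for proNeu2 and -0.53 for preNeu, with overlap in Ly6C- GMP and proNeu2. Without proNeu1 the Psmb9 to Psmb6 difference was -0.20 (exact permutation p = 0.128), without preNeu -0.15 (p = 0.186, exact), without control Ly6C- GMP replicate 1 -0.19 (p = 0.0605, exact) and without sepsis Ly6C- GMP replicate 3 -0.22 (p = 0.0536, exact), so the call rests on these libraries.

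The order over all 11 groups differed between the pairs. Psmb8 over Psmb5 was highest in control Ly6C- GMP (0.24) and next in Ly6Chi monocytes (-0.04 ± 0.36), proNeu1 (-0.06 ± 0.28) and TpMo (-0.17 ± 0.17), each overlapping its neighbour in this order, and lowest in sepsis preNeu (-2.04), below all other groups. Psmb9 over Psmb6 was highest in TpMo (-1.17), with preNeu (-1.26 ± 0.26), cMoP (-1.35 ± 0.08) and Ly6Chi monocytes (-1.36 ± 0.26) within its neighbours' spread, and lowest in sepsis proNeu1 (-2.42). Psmb10 over Psmb7 was highest in Ly6Chi monocytes (3.32), overlapping control Ly6C- GMP (3.02 ± 0.16), and lowest in sepsis preNeu (0.42), below all other groups. In Psmb8 over Psmb5 and Psmb10 over Psmb7, control preNeu had the largest SD of the 11 groups, and in Psmb9 over Psmb6 control Ly6C- GMP had (0.42, against 0.26 in control preNeu). Replicate 1 of control preNeu had log2 ratios of -0.43 for Psmb8 over Psmb5 and 2.16 for Psmb10 over Psmb7, while replicate 2 had -1.46 and 0.97 and replicate 3 had -1.24 and 1.35.

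**Figure D3:**
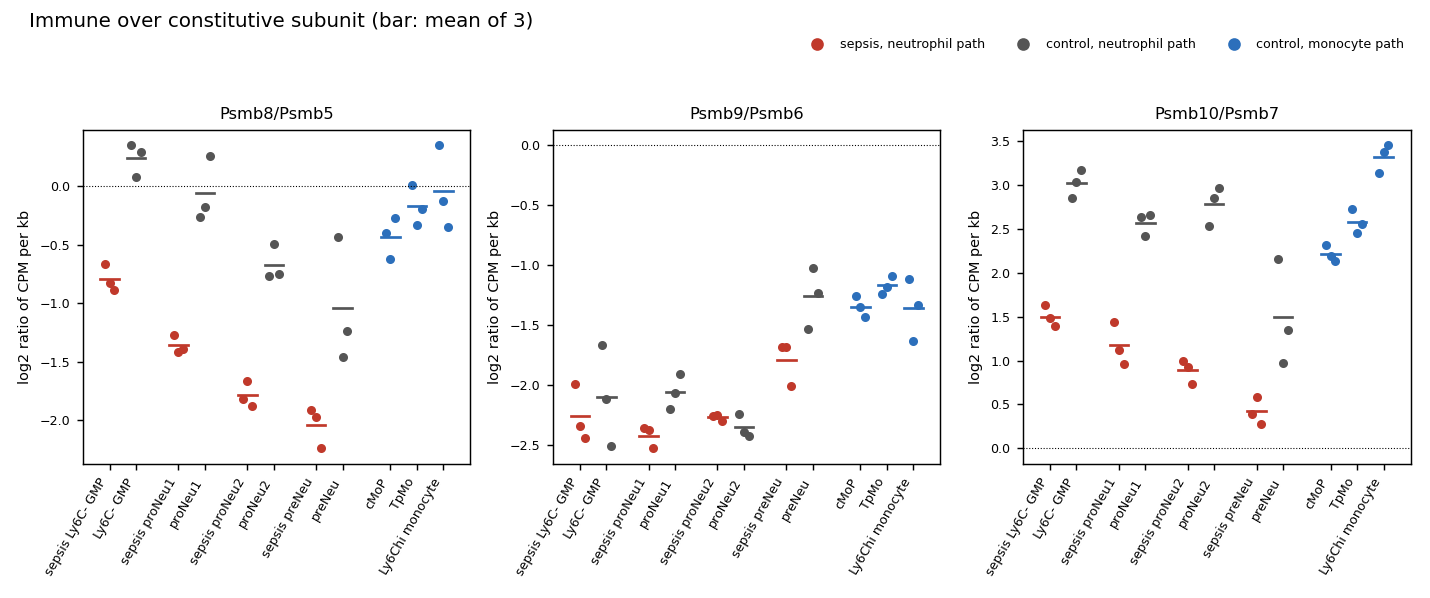
Log2 ratio of each immune subunit to its constitutive counterpart, both in CPM per kilobase, 1 point per library and a bar at the mean of 3. The Psmb8 to Psmb5 and Psmb10 to Psmb7 points of sepsis lie below their controls in every population, by 1.00 to 1.30 and 1.08 to 1.89 log2 units on average.

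Markers of other cells also differed between sepsis and control, but not alike in all 4 populations. In Ly6C- GMP the 6 dendritic cell markers summed to 28.1 to 43.5 CPM in sepsis and 2294.3 to 3264.7 CPM in controls, with 4 of 5 tested lower and none at 0 in either group. The 4 eosinophil and basophil markers summed there to 2512.8 to 4906 CPM in sepsis and 11833.1 to 18105.9 CPM in controls, again with none at 0. In proNeu1 the dendritic cell markers were far scarcer, at 8.08 to 19.7 CPM in sepsis and 52.7 to 87.1 CPM in controls, and the Psmb8 to Psmb5 and Psmb10 to Psmb7 differences there were -1.30 and -1.40. In proNeu2 they summed to 6.84 to 14.5 CPM in sepsis and 20.6 to 24.5 CPM in controls. The eosinophil and basophil markers were higher there, at 88.8 to 200 CPM in sepsis and 58.9 to 62.2 CPM in controls, with 2 of 4 called higher and 1 lower. In preNeu the dendritic cell markers overlapped, at 10.1 to 15.4 CPM in sepsis and 11.8 to 26.5 CPM in controls. Neutrophil precursor markers, 5 genes with none at 0, summed to 31457 to 35309.4 CPM in sepsis and 76967.1 to 82569.9 CPM in control proNeu1, and to 36439.3 to 39787.5 CPM in sepsis and 89936.9 to 94951.2 CPM in control proNeu2. Of the 5, 1 was called higher and 2 lower in proNeu1, and 0 higher and 3 lower in proNeu2. The part of these cells and markers in the subunit changes was not tested.

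Along the control neutrophil path, few members were called at the early steps and most at the last one sampled. The level of all 49 together was 7833 to 8099.3 CPM in proNeu2, 8560 to 9441.5 CPM in proNeu1 and 8429.7 to 9248.3 CPM in Ly6C- GMP. The CPM sums of the ATPases and of the cap genes were also lower in every proNeu2 library than in any of proNeu1. CPM leaves out the scaling factors that the tests use. These were 1.14 to 1.17 in Ly6C- GMP, 1.05 to 1.08 in proNeu1 and 0.973 to 0.994 in proNeu2, so this order holds for CPM alone. Between Ly6C- GMP and proNeu1, 2 of 48 members rose and none fell (6.04% of all 18198 genes were called, 3.59% higher and 2.45% lower): Psmd6, a subunit of the lid (0.42 ± 0.11, adjusted p = 0.0172), and Psmd14, the lid's deubiquitinase (0.36 ± 0.10, adjusted p = 0.0216). By edgeR none fell at this step; at an unadjusted p below 0.05 1 did, and DESeq2 called none. From proNeu1 to proNeu2, Psmb8 alone fell (-0.66 ± 0.15, adjusted p = 0.0111; 3.05% of genes were called, 1.48% lower and 1.57% higher) and none rose by edgeR, with 2 higher at an unadjusted p below 0.05 and none called by DESeq2. Both counts changed with single libraries. Psmb8 was no longer called without proNeu2 replicate 2 or replicate 3. Psmd14 was not called when any of 15 single libraries was left out (adjusted p up to 0.242, edgeR), nor Psmd6 for any of 10 (adjusted p up to 0.219); in both the highest p came without proNeu1 replicate 3. The eosinophil and basophil markers summed to 92.4 to 137.1 CPM in proNeu1 and 11833.1 to 18105.9 CPM in Ly6C- GMP, with 4 of 4 lower and none at 0, and the dendritic cell markers to 52.7 to 87.1 CPM in proNeu1 and 2294.3 to 3264.7 CPM in Ly6C- GMP, with 4 of 5 tested lower and none at 0; their part was not tested.

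From proNeu2 to preNeu, 30 of 48 members fell and none rose, where 27.8% of all genes were called, 14.7% lower and 13.1% higher. None rose by edgeR at an unadjusted p below 0.05 either, nor by DESeq2. The median member changed by -0.50, and the median of all genes by 0. Those that fell were 6 of 7 alpha ring genes, 6 of 7 beta ring genes, 3 of 6 ATPases, 7 of 14 cap genes, 3 of 4 assembly chaperones, 2 of 5 activators, 1 of 3 immune subunits, and Psma8 and Psmc3ip. Control preNeu replicate 3 was nearest to proNeu2, with an alpha ring sum of 1117.3 CPM against 770.8 and 778.0 CPM in the other two; without the 5 shallow libraries, of which it is one, 31 fell. Against a fold change of 1.5, 12 fell.

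Psmg1, which pairs with Psmg2 as the first chaperone of alpha ring assembly, was at 14.7, 14.5 and 30.8 CPM in preNeu and 85.4, 66.6 and 70.4 CPM in proNeu2. The gap was wide in every library, with a log2 fold change of -1.73 ± 0.22 (adjusted p = 6.36e-07). Psmb10 fell about as far (-1.75 ± 0.14, adjusted p = 2.83e-10), with no preNeu value above 28.1 CPM and no proNeu2 value below 91.5 CPM. Psma7, an alpha ring subunit, was at 100.9, 75.2 and 130.3 CPM in preNeu and 296.2, 297.2 and 240.6 CPM in proNeu2 (-1.25 ± 0.14, adjusted p = 4.66e-08), and Psmb2, a non-catalytic beta subunit, at 100.1, 69.3 and 87.7 CPM in preNeu and 253.8, 212.3 and 202.8 CPM in proNeu2 (-1.16 ± 0.14, adjusted p = 2.78e-07). Not every core gene took part: Psmb5 (0.08 ± 0.22, adjusted p = 0.864), Psma1 (0.08 ± 0.13, adjusted p = 0.7) and Psmb9 (0.04 ± 0.14, adjusted p = 0.897) did not pass the test.

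On the monocyte path, genes rose and fell at the early steps and mostly fell at the last. Between Ly6C- GMP and cMoP, 6 members rose and 7 fell (17.2% of genes were called, 9.22% higher and 7.96% lower), led upward by Psmb5 (0.79 ± 0.22, adjusted p = 0.0128), the cap subunit Psmd8 (0.70 ± 0.11, adjusted p = 4.62e-05), Psme1 (0.65 ± 0.18, adjusted p = 0.0101) and Psmb7 (0.58 ± 0.17, adjusted p = 0.0168). Those that fell furthest were Psme3, the nuclear activator (-0.88 ± 0.26, adjusted p = 0.0155), Psmd7, the lid partner of Psmd14 (-0.59 ± 0.14, adjusted p = 0.00251), and Psme4, an activator that caps the core on its own (-0.59 ± 0.20, adjusted p = 0.0469). With DESeq2's size factors in edgeR the split was 6 higher and 11 lower. The eosinophil and basophil markers summed to 12.2 to 24.8 CPM in cMoP and 11833.1 to 18105.9 CPM in Ly6C- GMP, with 4 of 4 lower and none at 0, and the dendritic cell markers to 17.2 to 27 CPM in cMoP and 2294.3 to 3264.7 CPM in Ly6C- GMP, with 3 of 5 tested lower and none at 0; their part in these changes was not tested. Without cMoP replicate 2, and likewise without Ly6C- GMP replicate 3, neither Psmb5, Psme1 nor Psmb7 was called (adjusted p up to 0.101, edgeR), and Psmb7 was not called without Ly6C- GMP replicate 2 either. Psme3 was not called without Ly6C- GMP replicate 1 or 2 or cMoP replicate 3 (adjusted p up to 0.0715), and Psme4 was lost with any of 22 single libraries, its change being -0.42 without Ly6C- GMP replicate 3 (adjusted p = 0.25). The count of 13 was 5 without Ly6C- GMP replicate 3 or cMoP replicate 2 and 8 without cMoP replicate 1.

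From cMoP to TpMo, 1 member rose and 7 fell (18.1% of genes were called, 9.52% higher and 8.56% lower). Psmg1 fell to 16.8, 20.5 and 22.3 CPM in TpMo, against 56.0, 57.0 and 49.9 CPM in cMoP (-1.25 ± 0.22, adjusted p = 9.9e-05), and Psmd3 to 56.0, 79.5 and 106.3 CPM in TpMo, against 160.1, 155.8 and 177.2 CPM in cMoP (-0.83 ± 0.23, adjusted p = 0.0102). The ranges were apart for both. Psme3 (-0.86 ± 0.26, adjusted p = 0.0173) and Psmd7 (-0.57 ± 0.14, adjusted p = 0.00334) also fell, and the gene that rose was Psme2b (1.24 ± 0.32, adjusted p = 0.00527), an intronless copy that is 99.4% identical to Psme2 over 794 bases, so reads of the pair may be split wrongly. Psmd3 was not called without TpMo replicate 1 (adjusted p = 0.0813, edgeR), nor Psme3 without that library or cMoP replicate 1 (adjusted p up to 0.0802). The count of 8 was 5 without TpMo replicate 1, 14 with the compared libraries fitted alone and 18 without scaling factors, where the median of all genes shifted by -0.19.

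From TpMo to Ly6Chi monocytes, 21 members fell and 2 rose (20.9% of genes were called, 13.3% lower and 7.59% higher), with a median change of -0.33. All 6 ATPases fell, with 8 of 14 cap genes, 4 of 7 alpha ring genes (1 by DESeq2) and 2 of 4 chaperones, whereas no beta ring gene was called in either direction by edgeR or DESeq2 (2 were lower at an unadjusted p below 0.05). Psmc3, an ATPase that binds ubiquitin chains, was at 150.7, 133.4 and 188.1 CPM in Ly6Chi monocytes and 303.3, 318.2 and 276.5 CPM in TpMo. Psmd14 was at 96.3, 111.1 and 116.5 CPM in Ly6Chi monocytes and 221.8, 210.7 and 206.5 CPM in TpMo, and Psmd5, a chaperone of base assembly, at 79.1, 77.2 and 55.6 CPM in Ly6Chi monocytes and 153.9, 137.0 and 124.8 CPM in TpMo. Each of these 3 was lower in every Ly6Chi library, with log2 fold changes of -0.93 ± 0.11 (adjusted p = 2.86e-07) for Psmc3, -0.98 ± 0.10 (adjusted p = 6.42e-09) for Psmd14 and -0.96 ± 0.13 (adjusted p = 2.18e-06) for Psmd5. The only immune subunit called, Psmb10, rose (0.41 ± 0.14, adjusted p = 0.0332), though not when any of 13 single libraries was left out; without Ly6Chi monocyte replicate 3 its change was 0.27 (adjusted p = 0.245, edgeR). The 6 dendritic cell markers summed to 257.7 to 765.8 CPM in Ly6Chi monocytes and 24 to 44.3 CPM in TpMo, with 4 of 5 tested higher and none at 0, and their part in the changes of this step was not tested. Against a fold change of 1.5 the count of 23 was 6.

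**Figure D4:**
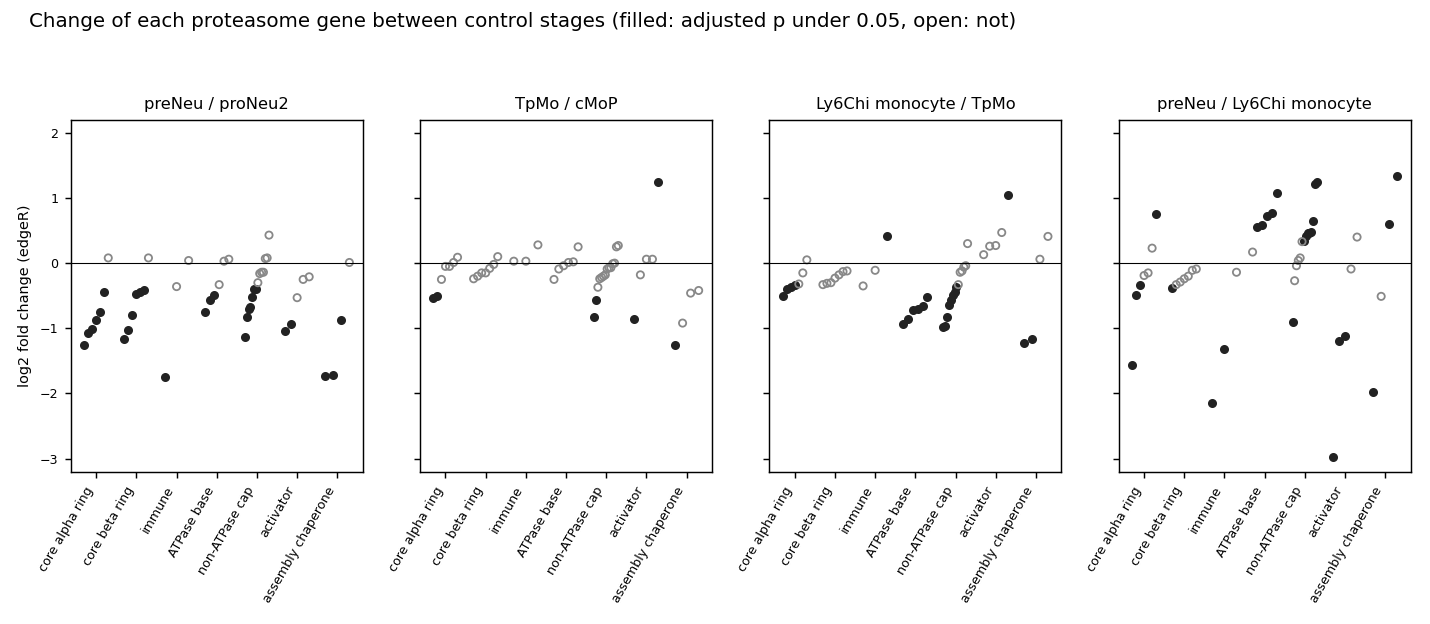
Log2 fold change of each tested member, grouped by class, for preNeu over proNeu2, TpMo over cMoP, Ly6Chi monocytes over TpMo and preNeu over Ly6Chi monocytes. From proNeu2 to preNeu the alpha and beta ring genes fell in 12 of 14 cases, while from TpMo to Ly6Chi monocytes all 6 ATPases fell and no beta ring gene was called.

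The paths were compared at an early and a late stage. In proNeu1 against cMoP, 16 members were higher and 3 lower (16.3% of genes were called, 8.25% higher and 8.03% lower). Among the higher ones were 4 of 6 ATPases and 7 of 14 cap genes, led by Psmg1 (0.79 ± 0.21, adjusted p = 0.0102), Psmc3 (0.71 ± 0.11, adjusted p = 4.39e-05), Psme4 (0.71 ± 0.20, adjusted p = 0.0162) and the lid subunit Psmd12 (0.66 ± 0.13, adjusted p = 0.00042). Psmb5 (-0.75 ± 0.22, adjusted p = 0.0197), Psme1 (-0.73 ± 0.18, adjusted p = 0.00442) and Psmd8 (-0.48 ± 0.11, adjusted p = 0.00329) were lower. No immune subunit was called higher or lower by edgeR; 1 was higher and 1 lower at an unadjusted p below 0.05, and DESeq2 called 1 lower. Without proNeu1 replicate 3, Psmg1 (0.48, adjusted p = 0.174, edgeR), Psme4 (0.53, adjusted p = 0.136) and Psmb5 (-0.67, adjusted p = 0.0887) were not called. Psmb5 was also lost without cMoP replicate 2, and Psme4 without proNeu1 replicate 2 or cMoP replicate 1 or 3. The total of 19 was 9 without proNeu1 replicate 3, and without scaling factors the split was 11 higher and 5 lower.

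In preNeu against Ly6Chi monocytes, 17 members were higher and 11 lower (39.8% of genes were called, 21% higher and 18.9% lower), and the classes divided. Higher were 5 of 6 ATPases, 8 of 14 cap genes and 2 of 4 chaperones, among them Psmg1 (1.33 ± 0.23, adjusted p = 2.47e-05), Psmd5 (1.25 ± 0.13, adjusted p = 8.55e-09), Psmd14 (1.21 ± 0.10, adjusted p = 3.81e-11) and Psmc3 (1.07 ± 0.11, adjusted p = 7.92e-09). Lower were 2 of 3 immune subunits, 3 of 5 activators and 3 of 7 alpha ring genes. Psmb10 was at 28.1, 18.8 and 27.9 CPM in preNeu and 117.1, 112.4 and 152.6 CPM in Ly6Chi monocytes (-2.15 ± 0.14, adjusted p = 5.45e-13), and Psmb8 at 56.4, 56.5 and 90.4 CPM in preNeu and 212.7, 161.3 and 198.4 CPM in Ly6Chi monocytes (-1.32 ± 0.15, adjusted p = 2.26e-08). Psma7 was also lower in preNeu (-1.57 ± 0.14, adjusted p = 1.72e-10), as was Psme1 (-1.19 ± 0.18, adjusted p = 4.1e-06). The dendritic cell markers summed to 11.8 to 26.5 CPM in preNeu and 257.7 to 765.8 CPM in Ly6Chi monocytes, with 4 of 5 tested lower and none at 0, and their part was not tested. Fitted with the compared libraries alone, 17 members were called in place of 28, and without scaling factors, where the median of all genes shifted by -0.24, 10 members were higher and 18 lower.

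More proteasome genes rose than fell in sepsis in each population. In Ly6C- GMP, 17 of 48 rose and 5 fell (17.7% of all genes were called, 10.3% higher and 7.42% lower). In proNeu1, 12 rose and 7 fell (15.6% of genes, 8.3% higher and 7.3% lower), and in proNeu2, 16 rose and 6 fell (17% of genes, 9.45% higher and 7.57% lower). In preNeu, 30 rose and none fell (11.8% of genes, 7.57% higher and 4.21% lower). None fell there by DESeq2 or at an unadjusted edgeR p below 0.05. The median member changed by 0.19 log2 units for Ly6C- GMP, 0.08 for proNeu1, 0.23 for proNeu2 and 0.52 for preNeu, and the median of all genes lay between -0.03 and 0. Averaged over the 4, 27 members rose and 7 fell (37.1% of genes were called, 19.6% higher and 17.5% lower). These shares of all genes were not matched to the higher level of the members.

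These counts differ in how firmly they stand. Without the 5 shallow libraries, sepsis preNeu had 24 higher and none lower, and sepsis proNeu1 10 higher and 4 lower. Fitted with its own 6 libraries alone, preNeu had 14 calls. Without scaling factors Ly6C- GMP had 14 higher and 7 lower, where the median of all genes shifted by -0.14. Against a fold change of 1.5 the counts were 2 for Ly6C- GMP, 2 for proNeu1, 5 for proNeu2 and 2 for preNeu. In preNeu, sepsis and control cells also differed in their own markers: the 4 preNeu markers summed to 21691 to 28956.4 CPM in sepsis and 58347.1 to 84876 CPM in controls, with 3 of 4 lower and none at 0, and the neutrophil precursor markers to 18178.3 to 18959.9 CPM in sepsis and 9610.6 to 19763.4 CPM in controls. Their part in the proteasome changes was not tested.

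**Figure D5:**
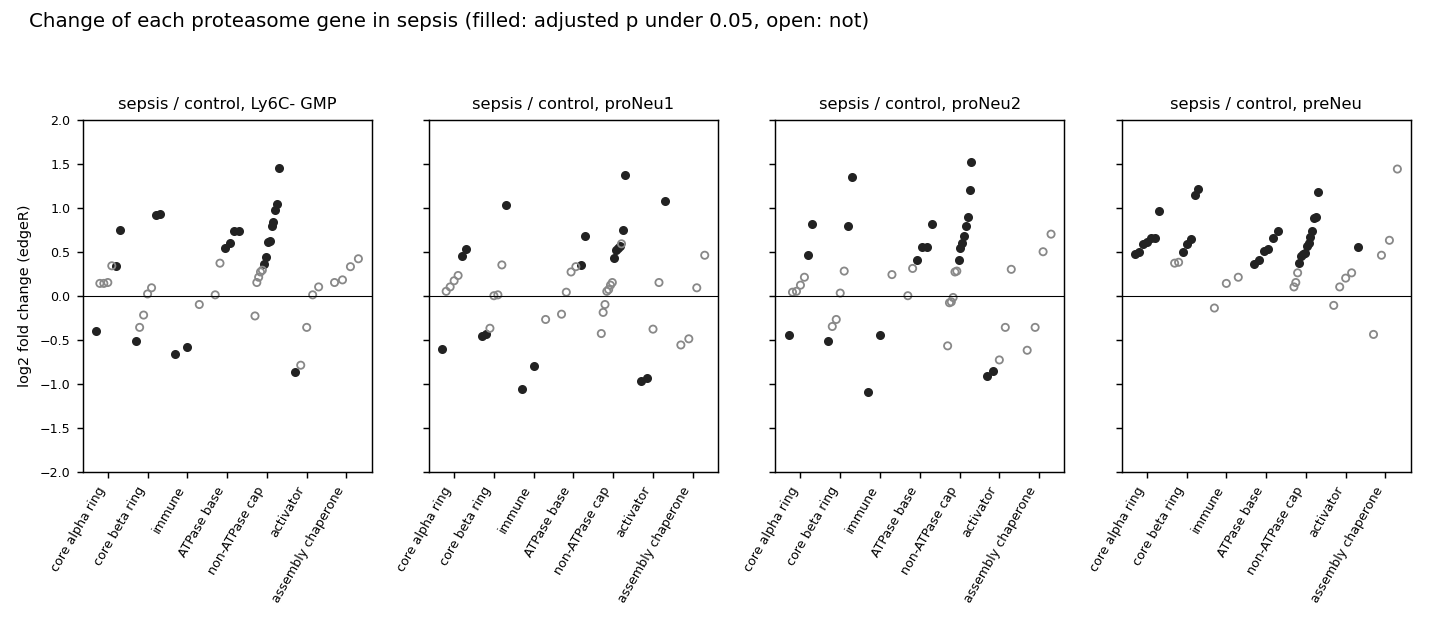
Log2 fold change of sepsis over control for each tested member in the 4 populations, grouped by class; filled points passed an adjusted p of 0.05. ATPase and cap genes lie mostly above 0 in all 4 populations, Psmb9, Psmb10 and Psme2 lie below 0 in the 3 earlier ones, and in preNeu 30 points are filled, all above 0.

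Both kinds of cap gene rose together. Averaged over the populations, 11 of 14 non-ATPase cap genes rose and none fell, with a median of 0.46, and 5 of 6 ATPases rose and none fell, with a median of 0.50. By DESeq2 and at an unadjusted p below 0.05, 1 cap gene was lower and no ATPase was. Psmd3, a lid subunit, was at 251.2, 331.1 and 310.9 CPM in sepsis and 130.2, 115.6 and 111.5 CPM in control Ly6C- GMP, and at 310.2, 277.2 and 275.6 CPM in sepsis and 114.7, 107.7 and 124.8 CPM in controls in proNeu1. In proNeu2 the levels of Psmd3 were 243.6, 233.7 and 141.7 CPM in sepsis and 89.3, 81.5 and 101.1 CPM in controls, and in preNeu 149.8, 178.4 and 178.5 CPM in sepsis and 35.4, 78.2 and 104.4 CPM in controls. No range overlapped, and the mean change of 1.30 ± 0.12 (adjusted p = 5.61e-10) was the largest of the 48.

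Psmd1, the large scaffold of the base, was at 300.9, 335.0 and 319.0 CPM in sepsis and 139.0, 165.2 and 194.3 CPM in control preNeu, and at 409.9, 449.7 and 520.6 CPM in sepsis and 264.6, 232.3 and 256.3 CPM in controls in proNeu2. It was higher in sepsis by a like amount in each population: 0.84 ± 0.12 (adjusted p = 7.33e-06) for Ly6C- GMP, 0.75 ± 0.12 (adjusted p = 5.22e-05) for proNeu1, 0.90 ± 0.12 (adjusted p = 3.83e-06) for proNeu2 and 0.88 ± 0.12 (adjusted p = 7.42e-06) for preNeu. Psmd9, a chaperone of base assembly, rose on average by 0.99 ± 0.14 (adjusted p = 1.93e-06), but in proNeu1 its libraries overlapped (0.59 ± 0.28, adjusted p = 0.165). Psmd14 rose by 0.60 ± 0.05 (adjusted p = 9.53e-11) and Psmd6 by 0.68 ± 0.05 (adjusted p = 8.04e-11). The ATPases ranged between Psmc6 (0.69 ± 0.06, adjusted p = 1e-10) and Psmc3 (0.04 ± 0.06, adjusted p = 0.658), the only one of the 6 not called. Exons of Psmd9 overlap Gm26745 over 25.6% of their length and those of Psmc3 overlap Slc39a13 over 30.0%.

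The core genes were less uniform. Averaged over the populations, 6 of 7 alpha ring genes rose and 1 fell, and 3 of 7 beta ring genes rose and 1 fell. Psma1 (0.67 ± 0.06, adjusted p = 1.84e-09) and Psma5 (0.55 ± 0.07, adjusted p = 2.04e-07) rose most among the alpha genes. Psma7 was at 229.3, 196.7 and 229.3 CPM in sepsis and 292.1, 318.7 and 338.6 CPM in control Ly6C- GMP, at 196.9, 227.9 and 196.6 CPM in sepsis and 326.2, 302.2 and 363.8 CPM in controls in proNeu1, and at 190.1, 195.6 and 216.2 CPM in sepsis and 296.2, 297.2 and 240.6 CPM in controls in proNeu2. In preNeu the order turned, with 143.7, 150.6 and 185.2 CPM in sepsis and 100.9, 75.2 and 130.3 CPM in controls. Sepsis libraries were thus all below their controls in the first 3 populations and all above them in preNeu, where the change was 0.59 ± 0.14 (adjusted p = 0.00348).

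In preNeu the core genes rose with the cap. All 7 alpha ring genes, 5 of 7 beta ring genes, all 6 ATPases and 11 of 14 cap genes rose there, with 1 of 5 activators. No immune subunit and none of the 4 Psmg assembly chaperones was called in preNeu: by DESeq2 2 of these chaperones were called higher and 3 were at an unadjusted p below 0.05, and for the immune subunits both counts were 0. Psmd5 and Psmd9, chaperones of base assembly, were counted with the cap genes, and Psmd9 was called higher there (0.90 ± 0.29, adjusted p = 0.0375). Psmb7 (1.21 ± 0.17, adjusted p = 2.02e-05), Psmd3 (1.18 ± 0.23, adjusted p = 0.000834), Psmb5 (1.15 ± 0.23, adjusted p = 0.00084) and Psma5 (0.96 ± 0.14, adjusted p = 2.03e-05) led.

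The size of the sepsis change differed between populations for 7 of 48 members by the interaction test, against 6.34% of all genes. They were Psmb10, Psma7, Psmb2, Psmb6, Psmb1, Psme2 and Psme3. For all but Psme3, the fold change was below 0 in Ly6C- GMP, proNeu1 and proNeu2 and above 0 in preNeu, the population whose control levels were the lowest. Without control preNeu replicate 3 the count was 11, without the shallow libraries 9 and without scaling factors 13.

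Among the activators, Psme2 fell in 3 populations and its ring partner Psme1 in none. Psme2 was at 58.5, 51.7 and 57.9 CPM in sepsis and 101.2, 117.1 and 118.6 CPM in control Ly6C- GMP, at 51.5, 56.7 and 49.5 CPM in sepsis and 94.1, 93.2 and 128.3 CPM in controls in proNeu1, and at 58.4, 48.7 and 55.8 CPM in sepsis and 106.3, 110.3 and 83.7 CPM in controls in proNeu2. It fell in these 3, with log2 fold changes of -0.87 ± 0.17 (adjusted p = 0.000444) for Ly6C- GMP, -0.94 ± 0.17 (adjusted p = 0.000288) for proNeu1 and -0.86 ± 0.17 (adjusted p = 0.000583) for proNeu2, and overlapped in preNeu, with 50.3, 52.3 and 62.5 CPM in sepsis and 51.3, 34.0 and 51.8 CPM in controls. Psme1 was called in preNeu (0.55 ± 0.18, adjusted p = 0.0456) and in none of the other 3, and the difference between the 2 genes was not tested. The Psme1 call was lost when any of 18 single libraries was left out, with the largest adjusted p, 0.229 by edgeR, without sepsis preNeu replicate 3. The genes lie 5911 bases apart on chromosome 14, on opposite strands.

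Psme3 took no single direction. In proNeu1 it was at 202.9, 191.9 and 144.8 CPM in sepsis and 88.6, 66.6 and 110.2 CPM in controls (1.08 ± 0.26, adjusted p = 0.00408), and in proNeu2 at 80.4, 67.9 and 69.3 CPM in sepsis and 116.5, 124.2 and 172.4 CPM in controls (-0.91 ± 0.26, adjusted p = 0.0128). It was thus higher in every sepsis library of proNeu1 and lower in every one of proNeu2. The proNeu2 call was lost without control replicate 3 or sepsis replicate 2 (adjusted p up to 0.0898, edgeR). In Ly6C- GMP its 3 sepsis values spread widely, at 77.1, 113.0 and 207.2 CPM, around controls of 160.8, 163.5 and 108.9 CPM. Psme4 was called in no single population and averaged -0.30 ± 0.10 (adjusted p = 0.0199) over the 4, a call lost without control preNeu replicate 1 (-0.25, adjusted p = 0.0519). Psme2b, the copy of Psme2, was at 45.2, 28.7 and 47.4 CPM in Ly6Chi monocytes, 19.3, 19.0 and 20.6 CPM in TpMo and 5.27, 4.10 and 3.81 CPM in preNeu.

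Of the 4 Psmg assembly chaperones, Psmg2 rose in sepsis on average (0.50 ± 0.11, adjusted p = 0.000741) and none fell by edgeR, at an unadjusted p below 0.05 or by DESeq2. Their median change in preNeu was 0.54, with a range of -0.44 to 1.44, and the single fold changes ranged over -0.56 to 0.46 in proNeu1 and -0.62 to 0.70 in proNeu2. Psmg4 was a low gene, at 0.559 to 7.68 CPM over the control libraries. Psma8, an alpha subunit of the testis form, was also low: it reached 18.8 CPM in Ly6C- GMP replicate 2, beside 2.49 and 7.32 CPM in the other two, and was 0 to 1.09 CPM in control preNeu (-4.12 ± 1.04, adjusted p = 0.00318 against proNeu2). It is 74.3% identical to Psma7 over 789 bases. Psmc3ip, the recombination gene, fell at the last sampled step of either path. It was at 10.3, 9.75 and 9.42 CPM in preNeu, against 42.1, 46.3 and 34.6 CPM in proNeu2 (-1.84 ± 0.33, adjusted p = 7.72e-05). In Ly6Chi monocytes it was at 0.623, 3.32 and 4.57 CPM, against 13, 14.3 and 11.8 CPM in TpMo (-2.26 ± 0.35, adjusted p = 1.39e-05). Of its exonic length, 84.5% overlaps Mlx on the opposite strand.

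Genes that work with the proteasome were read from a list of 17 partners and regulators, of which 16 were found in the table. Averaged over the sepsis comparisons, 12 of 16 rose and 2 fell, where 37.1% of all genes were called, 19.6% higher and 17.5% lower. Usp14, the deubiquitinase that trims chains on the cap, rose by 0.95 ± 0.07 (adjusted p = 4.65e-12), Zfand5, which stimulates degradation, by 1.09 ± 0.21 (adjusted p = 0.00014), and the cap-bound thioredoxin Txnl1 by 0.82 ± 0.08 (adjusted p = 5.21e-09). Nfe2l1, the transcription factor that raises proteasome genes when degradation is short, rose by 0.40 ± 0.12 (adjusted p = 0.00788), and Ddi2, the protease that releases it, by 0.47 ± 0.08 (adjusted p = 4.54e-05). Ngly1, which strips sugars from Nfe2l1, fell (-0.75 ± 0.11, adjusted p = 2.87e-06), as did Pomp, a chaperone that joins the half-cores (-0.53 ± 0.08, adjusted p = 5.38e-06). The summed level of the 16 was 1431.1 to 1595.9 CPM in sepsis and 1088.5 to 1367.4 CPM in control preNeu, and 1934.5 to 2048 CPM in sepsis and 1429 to 1569 CPM in control proNeu1.

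At the last control steps sampled the partners divided. In preNeu against proNeu2, where 27.8% of all genes were called, 4 rose and 4 fell, with Pomp (-1.08 ± 0.16, adjusted p = 9.24e-06) and the cap deubiquitinase Uchl5 (-0.70 ± 0.12, adjusted p = 3.44e-05) lower and Sem1, the smallest cap subunit, higher (1.08 ± 0.25, adjusted p = 0.00118). In Ly6Chi monocytes against TpMo, where 20.9% were called, 4 rose and 4 fell. Uchl5 (-1.47 ± 0.12, adjusted p = 1.14e-10) and Usp14 (-1.10 ± 0.13, adjusted p = 2.14e-07) fell there, with the ATPases, while Ddi2 (0.96 ± 0.17, adjusted p = 6.64e-05) and Pomp (0.50 ± 0.16, adjusted p = 0.0259) rose.

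The genes downstream of the immunoproteasome, those of MHC class I processing, did not move as a block in sepsis: of 12, 2 rose and 3 fell on average, a share near the 37.1% of all genes called. Tapbp, which loads peptides onto MHC class I, fell (-0.96 ± 0.07, adjusted p = 3.26e-11), as did B2m, the light chain (-0.47 ± 0.06, adjusted p = 4.74e-07), and the transporter subunit Tap2 (-0.32 ± 0.07, adjusted p = 0.000257), while the chaperone Calr rose (1.02 ± 0.13, adjusted p = 2.06e-07). Tap1, next to Psmb8 and Psmb9, was not called (-0.10 ± 0.09, adjusted p = 0.46). In preNeu against Ly6Chi monocytes, 3 of the 12 were higher and 6 lower (39.8% of all genes were called), with Nlrc5, an activator of MHC class I genes, at -2.90 ± 0.37 (adjusted p = 2.58e-07).

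Interferon is known to induce the immune subunits. Genes of a list for interferon signalling, which includes targets of interferon, fell more often than they rose in sepsis: of 15, 8 fell and 1 rose on average (17.5% of all genes were lower and 19.6% higher). Isg15 (-2.81 ± 0.55, adjusted p = 0.00014), Irf7 (-1.97 ± 0.35, adjusted p = 4.77e-05) and Ifit1 (-1.88 ± 0.44, adjusted p = 0.0012), all targets of type I interferon, fell furthest. The summed level of the list was 989.2 to 1196 CPM in sepsis and 1424.3 to 1477.2 CPM in control Ly6C- GMP, and 1080.5 to 1258.5 CPM in sepsis and 1411.9 to 1714.8 CPM in control proNeu1. It was 1024.7 to 1141.4 CPM in sepsis and 1416.5 to 1519.4 CPM in control proNeu2, and 786.2 to 936.3 CPM in sepsis and 775 to 1043.5 CPM in control preNeu. The sums were thus apart in the 3 populations in which Psmb9, Psmb10 and Psme2 fell. They overlapped in preNeu, where none of these 3 genes was called. Counted by gene, the list did not set preNeu apart from proNeu1 and proNeu2 in this way. Sepsis preNeu had 2 of the 15 lower and none higher, with a median log2 fold change of -0.33. The proNeu2 comparison had 3 lower and 1 higher (median -0.33), and that of proNeu1 3 lower and none higher (median -0.22). Most were called for Ly6C- GMP, with 5 lower and 1 higher (median -0.54). Psmb8, the other immune subunit, was not called in sepsis in any population. In control preNeu against proNeu2, 6 of the 15 interferon genes rose, 1 fell and 8 were not called, though the sum of the list was lower. Psmb10 fell at that step (-1.75 ± 0.14), and Psmb8 and Psmb9 were not called. In Ly6Chi monocytes against TpMo, 12 of 15 rose and 3 were not called, and in preNeu against Ly6Chi monocytes 13 fell and 2 were not called. Whether the interferon genes and the immune subunits were linked was not tested.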

How the data were processed

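The authors aligned the reads with STAR to GRCm38 and counted them per gene with featureCounts, per the submitters' processing notes; versions, strand setting and the handling of pairs were not given in the sources used here. The deposited values are raw counts of 54752 features in 33 libraries, of which 54723 matched a symbol. Of the counts between 1 and 10, 76.2% were even. Libraries were made by SMARTSeq v2 and Nextera XT, per the labels' protocols.

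The counts were fitted in edgeR 4.0.16 (R 4.3.3, quasi-likelihood test, TMM factors, filterByExpr) in 1 model of 11 groups, with 18198 genes tested, 22 residual degrees of freedom and 14 comparisons, each adjusted by Benjamini-Hochberg with 0.05 as the threshold. CPM is per library total, so a fold change can differ from the ratio of CPM means. The fit was tested on simulated data. Ratios used exact permutation within 4 populations, since 3 libraries against 3 cannot give a p below 0.1. These permutations and the edgeR fit count every library as independent, and no mouse of origin was given for the libraries. Alternatives used DESeq2 1.42.0, other scalings and filters, halved counts, a fold change of 1.5 as the null, the compared libraries alone, and each library left out. Figures were drawn with matplotlib 3.10.9.

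Replicates are the biological ones of the series, numbered here in accession order. The table held 0 columns of other samples. Members and lists were chosen with earlier results of these data known. Named were the 6 catalytic subunits, Psme1 to Psme4 and, per comparison, up to 5 called members with the largest rise and up to 5 with the largest fall among those at a mean of at least 10 CPM; further members are named as examples of their class, chosen after their values were seen. From each list of other genes, up to 3 were to be named in each direction; Nfe2l1, Ddi2 and Tap1 were chosen after their values were seen. Some genes of these lists are not reported here by name.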

Additional observations from a re-analysis of the deposited data

Results flagged for a closer look

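In 7 proteasome genes the sepsis change differed between Ly6C- GMP, proNeu1, proNeu2 and preNeu by a test of the difference itself, the interaction term of the edgeR fit over all 18198 genes. Values are log2 fold changes of sepsis over control ± SE, from 3 libraries per group. For the immune subunit Psmb10 (interaction, adjusted p = 0.000272) the change was -0.58 ± 0.14 for Ly6C- GMP, -1.06 ± 0.14 for proNeu1, -1.10 ± 0.14 for proNeu2 and 0.14 ± 0.14 for preNeu. The alpha ring gene Psma7 (interaction, adjusted p = 0.000315) changed by -0.40 ± 0.13 for Ly6C- GMP, -0.61 ± 0.13 for proNeu1, -0.45 ± 0.13 for proNeu2 and 0.59 ± 0.14 for preNeu. For the beta ring gene Psmb2 (interaction, adjusted p = 0.00201) the change was -0.36 ± 0.14 for Ly6C- GMP, -0.46 ± 0.14 for proNeu1, -0.35 ± 0.14 for proNeu2 and 0.59 ± 0.14 for preNeu. In these 3 the first 3 populations were below 0 and preNeu was not. The catalytic subunit Psmb6 (interaction, adjusted p = 0.00343) changed by -0.51 ± 0.13 for Ly6C- GMP, -0.44 ± 0.13 for proNeu1, -0.52 ± 0.13 for proNeu2 and 0.38 ± 0.13 for preNeu. For the activator Psme2 (interaction, adjusted p = 0.00482) the change was -0.87 ± 0.17 for Ly6C- GMP, -0.94 ± 0.17 for proNeu1, -0.86 ± 0.17 for proNeu2 and 0.20 ± 0.17 for preNeu. The nuclear activator Psme3 (interaction, adjusted p = 0.00498) changed by 0.01 ± 0.25 for Ly6C- GMP, 1.08 ± 0.26 for proNeu1, -0.91 ± 0.26 for proNeu2 and 0.26 ± 0.26 for preNeu. For the beta ring gene Psmb1 (interaction, adjusted p = 0.0126) the change was -0.22 ± 0.14 for Ly6C- GMP, -0.37 ± 0.14 for proNeu1, -0.27 ± 0.14 for proNeu2 and 0.50 ± 0.14 for preNeu. The Psme3 change was above 0 in proNeu1 and below 0 in proNeu2, and the other 6 genes were below 0 in the first 3 populations and above 0 in preNeu; single pairs of populations were not tested against each other. When 1 library was left out at a time, the Psma7 call in Ly6C- GMP was lost for 4 libraries (adjusted p up to 0.186, edgeR) and that in proNeu2 for 4 (adjusted p up to 0.0956). Control preNeu replicate 3 is a shallow library; without it 11 genes had an interaction call. Why the changes differed was not tested.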

How the results depend on the processing

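No paired analysis was possible because the labels give no replicate numbers and the numbers used here follow accession order. No direction reversed under any alternative. Of 258 called pairs of a member and a comparison, 51 held in every alternative; of 11080 alternative values, 10304 kept their side of the threshold and 776 fell below it. Tested against a fold change of 1.5, the counts of called members were 0 in proNeu1 against Ly6C- GMP (2 otherwise), 0 in proNeu2 against proNeu1 (1), 12 in preNeu against proNeu2 (30), 0 in cMoP against Ly6C- GMP (13), 1 in TpMo against cMoP (8), 6 in Ly6Chi monocytes against TpMo (23), 0 in proNeu1 against cMoP (19) and 13 in preNeu against Ly6Chi monocytes (28). In sepsis they were 2 in Ly6C- GMP (22), 2 in proNeu1 (19), 5 in proNeu2 (22), 2 in preNeu (30) and 5 on average (34). With the compared libraries alone they were 0 in proNeu1 against Ly6C- GMP, 0 in proNeu2 against proNeu1, 14 in TpMo against cMoP, 17 in preNeu against Ly6Chi monocytes and 14 in sepsis preNeu, where fewer samples set the spread. Without scaling factors they were 0 in proNeu1 against Ly6C- GMP, 2 in proNeu2 against proNeu1, 18 in TpMo against cMoP and 13 for the interaction (7). In proNeu1 against Ly6C- GMP the count was 0 without the filter and 1 without the shallow libraries; in proNeu2 against proNeu1 it was 2 at 5 CPM in 3 libraries, 2 by DESeq2 and 3 without the shallow libraries. Without those libraries the Psmb9 to Psmb6 change was -0.24 (exact permutation p = 0.0556), without proNeu1 -0.20 (p = 0.128, exact) and without preNeu -0.15 (p = 0.186, exact). Where no construction is named, the cause was not tested.

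Leaving out 1 library at a time gave 0 to 3 calls in proNeu1 against Ly6C- GMP, 0 to 2 in proNeu2 against proNeu1, 23 to 32 in preNeu against proNeu2, 5 to 16 in cMoP against Ly6C- GMP, 5 to 8 in TpMo against cMoP, 17 to 25 in Ly6Chi monocytes against TpMo, 9 to 21 in proNeu1 against cMoP and 24 to 29 in preNeu against Ly6Chi monocytes. For sepsis the ranges were 18 to 23 in Ly6C- GMP, 13 to 20 in proNeu1, 17 to 24 in proNeu2, 25 to 31 in preNeu, 33 to 36 on average and 7 to 11 for the interaction. The ratio changes ranged over -1.17 to -1.04 for Psmb8 to Psmb5, -0.29 to -0.19 for Psmb9 to Psmb6 and -1.54 to -1.39 for Psmb10 to Psmb7. Without scaling factors the median of all genes shifted by -0.11 in proNeu1 against Ly6C- GMP and in proNeu2 against proNeu1 and by -0.18 in preNeu against proNeu2. The 5 shallow libraries limit the precision for low genes such as Psmg4 and Psma8. The DESeq2 interaction was not run.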

Other observations

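Genes that attach ubiquitin or carry tagged substrates to the proteasome also changed. Of 14, 6 rose and 2 fell in sepsis on average, where 37.1% of all genes were called, 19.6% higher and 17.5% lower. The summed level of the list was lower, at 3496.3 to 3808.8 CPM in sepsis and 4172.4 to 4373 CPM in control Ly6C- GMP, and 3462.4 to 3586.2 CPM in sepsis and 3839.7 to 4208.1 CPM in control proNeu2. It overlapped in proNeu1, at 3679 to 3785.4 CPM in sepsis and 3705.1 to 4144.2 CPM in controls, and in preNeu, at 2976.4 to 3365.8 CPM in sepsis and 2766.1 to 3443.7 CPM in controls. Of those that rose, Rps27a, which encodes ubiquitin fused to a ribosomal protein, did so by 1.02 ± 0.13 (adjusted p = 2.71e-07), the unfolding ATPase Vcp by 0.85 ± 0.06 (adjusted p = 1.89e-12) and Uba1, the main ubiquitin-activating enzyme, by 0.77 ± 0.07 (adjusted p = 3.75e-10). Ubb, a polyubiquitin gene, fell (-0.90 ± 0.08, adjusted p = 2.18e-10). At the last monocyte step 5 of the 14 fell (13.3% of all genes were lower), led by Uba6 (-0.70 ± 0.22, adjusted p = 0.0255), Ubb (-0.56 ± 0.15, adjusted p = 0.00776) and Vcp (-0.45 ± 0.11, adjusted p = 0.00321). The list summed to 2486.6 to 2715.3 CPM in Ly6Chi monocytes and 3249.2 to 3291.4 CPM in TpMo.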
